A study of Sus scrofa and Bos taurus with 31 samples.

Results

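Accessible chromatin was compared between the cerebral cortex and the cerebellum of 2 pigs. Peaks of the 4 libraries that shared at least 1 bp were merged into regions, and regions with a peak in both cortex lists and neither cerebellum list (cortex-only) were set against regions with the reverse pattern (cerebellum-only). Of 380176 merged regions, 38191 (10.0%) were cortex-only and 57707 (15.2%) were cerebellum-only. A further 49310 regions held a peak in all 4 lists and are called shared. The remaining regions followed other patterns, most often a peak in a single list, as in the 72435 regions found only in the cerebellum of animal P348. The 4 libraries were part of a set of 31 ATAC-seq libraries from 8 tissues of pigs and cattle, of which 16 were from pigs.

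The animals, P348 and P350, were castrated male Yorkshire littermates described by the study as sexually mature, and each gave both tissues. The labels name no transgene and no treatment. Nuclei were frozen after isolation from whole tissue, so each library averages over all cell types of the sample. A lower signal at a gene in bulk tissue can come from fewer cells of a type or from less open chromatin per cell, and these cannot be told apart here.

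ATAC-seq marks open chromatin because the Tn5 transposase inserts sequencing adapters where nucleosomes are absent, mainly at promoters, enhancers and insulators. Glutamatergic projection neurons of the cortex use transcription factors such as NEUROD6, TBR1 and NEUROD2. The cerebellum is dominated by small, densely packed granule cells, which express the GABA-A receptor subunit GABRA6 and the synapse organizer CBLN1, while Purkinje cells are its output neurons. Oligodendrocytes, astrocytes and microglia occur in both tissues.

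The strongest region of each set and the regions next to the 3 marker genes are shown first, because the later results turn on what kind of sequence the peaks covered. Each line gives the central 200 bp of a region on the forward strand of Sscrofa11.1 (RefSeq), with matches to the motifs searched below in capitals. The cortex-only region nearest to NEUROD6 gave chr18:41723913-41724112, in an intron of CCDC129. The cerebellum-only regions with the highest enrichment next to GABRA6 and CBLN1 gave chr16:61857837-61858036, in an intron of GABRA6, and chr6:35521951-35522150, downstream of CBLN1 between genes. The strongest cortex-only region gave chr9:47523959-47524158, in an intron of ARHGEF12, and the strongest cerebellum-only region on a placed chromosome gave chr11:55616387-55616586, between genes and nearest to SLITRK1.
NEUROD6, cortex-only: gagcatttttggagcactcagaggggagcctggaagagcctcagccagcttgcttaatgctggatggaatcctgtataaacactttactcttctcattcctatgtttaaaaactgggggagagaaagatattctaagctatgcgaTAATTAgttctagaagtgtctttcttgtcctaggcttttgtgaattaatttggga
GABRA6, cerebellum-only: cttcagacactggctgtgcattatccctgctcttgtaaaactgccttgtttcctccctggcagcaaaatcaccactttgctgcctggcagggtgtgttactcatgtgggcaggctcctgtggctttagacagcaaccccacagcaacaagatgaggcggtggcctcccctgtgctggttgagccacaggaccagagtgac
CBLN1, cerebellum-only: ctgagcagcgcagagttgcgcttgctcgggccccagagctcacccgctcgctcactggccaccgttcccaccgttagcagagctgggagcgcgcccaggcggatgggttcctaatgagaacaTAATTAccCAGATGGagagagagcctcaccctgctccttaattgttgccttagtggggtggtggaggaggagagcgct
ARHGEF12, cortex-only: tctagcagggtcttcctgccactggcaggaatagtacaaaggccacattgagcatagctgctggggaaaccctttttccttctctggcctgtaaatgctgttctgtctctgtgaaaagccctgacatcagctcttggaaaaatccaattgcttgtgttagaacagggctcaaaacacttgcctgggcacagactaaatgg
SLITRK1, cerebellum-only: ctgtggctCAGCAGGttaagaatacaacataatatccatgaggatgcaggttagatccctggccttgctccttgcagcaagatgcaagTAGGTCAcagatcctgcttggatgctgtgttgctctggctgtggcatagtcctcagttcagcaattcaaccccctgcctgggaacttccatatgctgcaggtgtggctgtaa
The reference marks interspersed and simple repeats in lower case (soft-masking), and by that record 90.0% of the SLITRK1 window was repeat, against 0% of the NEUROD6 and GABRA6 windows and 11.0% of the CBLN1 and ARHGEF12 windows. The capitals are a homeobox match in the NEUROD6 window, a homeobox and an E-box match in the CBLN1 window, and a ROR and a ZIC match in the SLITRK1 window. No searched motif was found in the GABRA6 and ARHGEF12 windows.

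The marker genes separated the tissues only at individual regions. Fold enrichment below is the caller's ratio of reads in a peak to the local background. In GABRA6, 2 intronic regions were cerebellum-only. The region at 61857736 to 61858138 on chromosome 16, its middle 14.6 kb from the gene's start, had a fold of 4.85 in cerebellum P348 and 7.96 in cerebellum P350, and that at 61860353 to 61861443 had 4.20 and 5.86. The region over the GABRA6 start site had a fold of 3.98 and 4.49 in the cerebellum, 2.99 in cortex P350 and no peak in cortex P348. At the start site both cerebellum peaks were thus above the only cortex peak. The 2 intronic regions lack a cortex peak by the definition of their set. Past the end of the gene, 2 regions were cortex-only, their middles 62.7 and 60.5 kb from its start. The first had folds of 3.48 and 3.83 and the second 2.86 and 2.88.

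CBLN1 did not separate the tissues at its promoter. The region next to its start site was shared, with folds of 4.22 and 3.83 in the cortex and 3.26 and 3.68 in the cerebellum, and the difference did not pass limma's test. After each library was centred on its median fold over shared regions, as in all limma values here, the log2 difference (cortex minus cerebellum) was −0.02 (SE 0.155, adjusted p = 0.94, limma). The cerebellum-only region whose middle lay 5.95 kb downstream had folds of 3.23 and 3.60. Over the whole neighbourhood for which CBLN1 was the nearest gene, 7 regions were cortex-only and 4 were cerebellum-only. In the gene body or within 10 kb of it, none was cortex-only and 1 was cerebellum-only. The direction of the counts therefore depended on how far from the gene regions were counted.

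NEUROD6, a transcription factor of cortical projection neurons, had 1 cortex-only region, its middle at −33.3 kb (negative distances lie upstream of the start), with folds of 4.17 and 3.42, and 1 cerebellum-only region at −60.8 kb, with folds of 2.87 and 2.77. The shared region at −27.7 kb had folds of 5.29 and 5.77 in the cortex against 3.02 and 3.92 in the cerebellum. The cortex values were both higher, but the difference did not pass the test after centring and adjustment (centred log2 difference 0.45, SE 0.170, adjusted p = 0.0904, limma). The highest folds of any peak in the gene or within 10 kb of it were 3.02 and 3.94 in the cortex and 3.17 and 3.40 in the cerebellum, so the groups overlapped there.

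**Figure D1:**
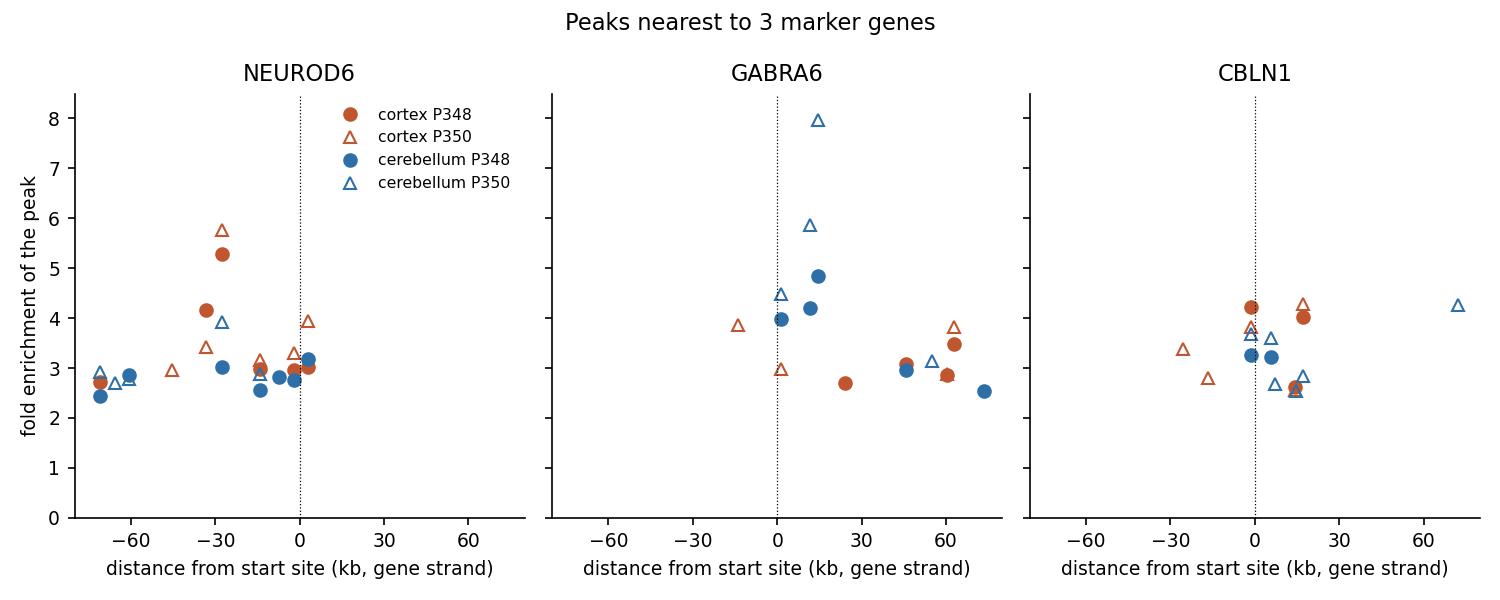
Fold enrichment of peaks in regions whose nearest coding start site belonged to NEUROD6, GABRA6 or CBLN1, against the distance of the region's middle from the gene's start (kb, along the gene's strand; regions beyond the axis are not drawn); filled circles are animal P348, open triangles P350, and missing points mean no peak in that list. The cerebellum points inside GABRA6 reach 4.85 and 7.96, while at the CBLN1 start the 4 libraries lie between 3.26 and 4.22.

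Which tissue had more peaks depended on how strong a peak had to be. The cortex lists held 148722 peaks in P348 and 164080 in P350, and the cerebellum lists 217308 and 207917, so the groups did not overlap. Covered length followed the same order, with 91.9 and 104 Mb in the cortex and 156 and 148 Mb in the cerebellum. Median peak width was 464 and 474 bp in the cortex and 585 and 578 bp in the cerebellum. With 2 libraries on each side the smallest p an exact two-sided permutation test can give is 0.333, and all 3 comparisons gave that value.

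The peaks of the cerebellum were weaker. Their median fold was 2.76 and 2.92, against 3.29 and 3.21 in the cortex. Peaks with q under 0.0001 numbered 25092 and 35792 in the cerebellum and 55400 and 67687 in the cortex, so the order of the tissues turned around at that limit. The median fold moved with the tissue, and its part in the number of peaks was not tested. Sequencing depth was not among the values used.

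The sizes of the tissue-only sets turned in the same way. With all listed peaks, cerebellum-only regions were 1.51 times as many as cortex-only regions. When each list was cut to its 148722 best peaks by q, the length of the shortest list, 46718 regions were cortex-only and 34922 cerebellum-only. At q under 0.01 the sets held 40387 and 25960 regions, and at q under 0.0001 they held 27447 and 5503, a 4.99-fold excess of cortex-only regions. Among the regions of the full lists, 30.9% of the cortex-only set but 4.05% of the cerebellum-only set reached q under 0.0001 in both animals.

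**Figure D2:**
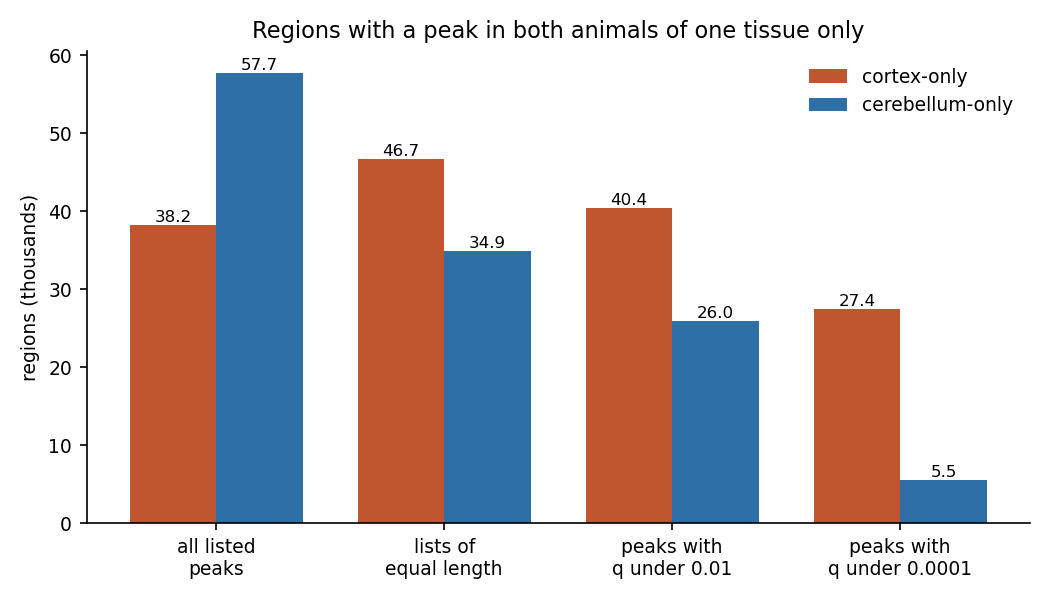
Number of regions with a peak in both animals of 1 tissue and neither library of the other, with all listed peaks, with lists cut to equal length and with 2 stricter q limits. The bars change order between all listed peaks (38191 against 57707) and every other setting drawn.

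Regions found in 1 animal were looked up in the other. Of 81791 regions that were cortex-only in P348 alone, 49.2% met a cortex peak and no cerebellum peak in P350, 20.3% met peaks of both tissues, 24.4% met no peak of either and 6.03% met the reverse. Of 150444 regions that were cerebellum-only in P348, 40.3% kept that pattern in P350, 8.13% met peaks of both tissues, 48.1% met no peak of either and 3.38% met the reverse. Starting from P350, the pattern was kept in P348 for 48.1% of cortex-only and 47.8% of cerebellum-only regions. From P350, 36.6% of cortex-only and 40.4% of cerebellum-only regions met no peak of either tissue in P348, 8.97% and 7.82% met both, and 6.25% and 3.94% met the reverse. In all 4 look-ups the reverse pattern was the least frequent outcome.

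Cerebellum-only regions were wider and lay farther from genes. Their median width was 864 bp (quartiles 526 and 1286 bp), against 513 bp (323 and 888 bp) for cortex-only regions and 1288 bp for shared regions. With lists of equal length the medians were 833 and 557 bp, and at q under 0.0001 they were 731 and 530 bp, so the order of the widths held where the order of the set sizes did not. The weaker of the 2 animals had a median fold of 2.69 in the cerebellum-only set and 3.19 in the cortex-only set.

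The sets differed in their distance to the nearest coding transcription start site (TSS). The median was 134117 bp for cerebellum-only regions and 35084.5 bp for cortex-only regions. TSS proximal regions, within 2 kb of a coding start, made up 5.25% of cortex-only regions (95% Wilson interval 5.03 to 5.48), 1.96% of cerebellum-only regions (1.85 to 2.07) and 25.7% of shared regions. These intervals cover counting error only, since neighbouring regions are not independent. Genic regions were 54.6% of the cortex-only and 32.4% of the cerebellum-only set, and intergenic regions 38.6% and 64.6%. Genic regions touching an exon were 8.42% and 5.43% of the sets.

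The sets differed at the far end as well. Regions over 500 kb from any coding start made up 15.7% of cerebellum-only and 2.04% of cortex-only regions, and those between 10 and 50 kb made up 19.5% and 38.7%. Windows of 1 Mb without any coding start, 226 of 2442 (9.25%), held 15.6% of cerebellum-only regions and held 2.00% of cortex-only regions. At q under 0.0001 these last shares were 14.2% and 2.01%, and the median distances were 109654.5 and 29669 bp. The sets thus differed in place with all listed peaks and with strong peaks. Chromosome X held 2.65% of cerebellum-only and 1.68% of cortex-only regions.

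**Figure D3:**
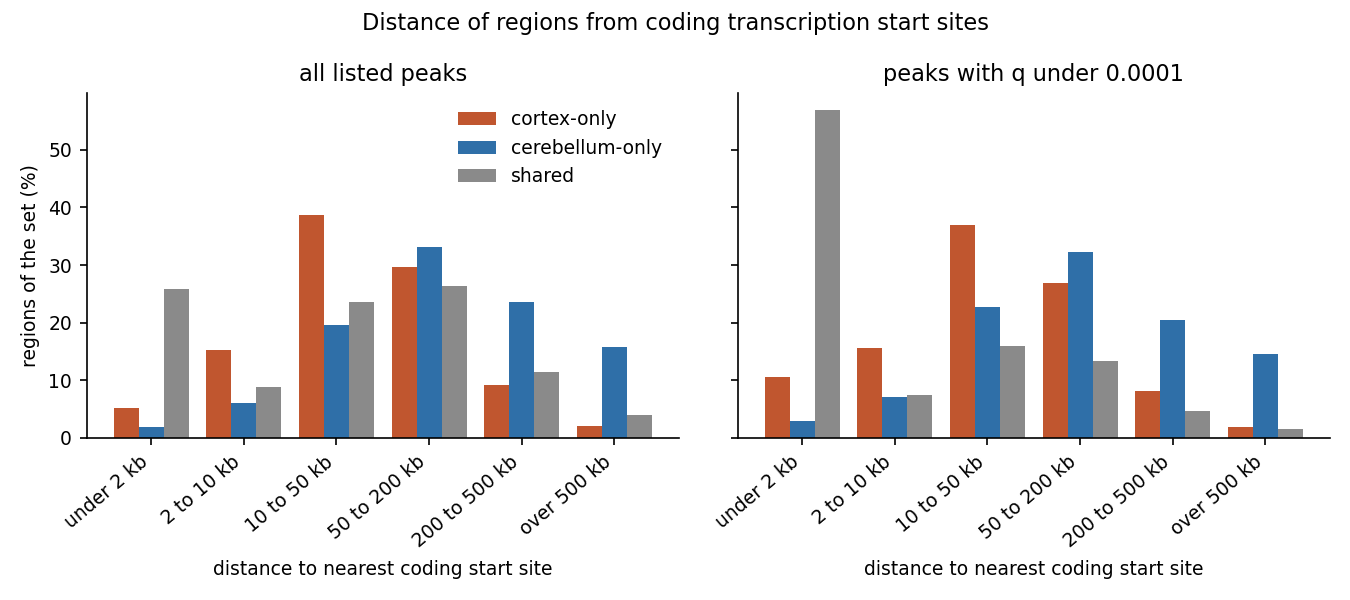
Share of cortex-only, cerebellum-only and shared regions (%) in 6 classes of distance to the nearest coding start site, with all listed peaks (left) and with peaks of q under 0.0001 (right). In both panels the cerebellum-only bars exceed the cortex-only bars from 50 kb outwards, and shared regions lead within 2 kb.

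Over all peaks of a library, the TSS proximal share was 12.3% and 11.3% in the cortex and 7.45% and 8.76% in the cerebellum. The difference was −3.71 percentage points (cerebellum minus cortex, exact two-sided permutation p = 0.333, the smallest possible). It turned to 6.40 points when only peaks with q under 0.0001 were kept, although the TSS proximal share of the cerebellum-only regions then remained below that of the cortex-only regions (2.82% against 10.6%). Shared regions at that limit were 56.4% TSS proximal.

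Repeat sequence distinguished the sets as well. In the central 200 bp, soft-masked letters made up 29.2% of the sequence of cerebellum-only regions on average, 13.7% of cortex-only and 13.8% of shared regions. Windows that were more than 50% masked were found in 24.1% of cerebellum-only regions, 4.85% of cortex-only regions and 15.4% of all merged regions. GC content was 46.7% ± 9.16 (SD over regions) in cerebellum-only, 49.1% ± 8.70 in cortex-only and 55.3% ± 11.3 in shared regions. Among the 100 regions of each set with the highest fold in the weaker animal, 5.0% of cerebellum-only and 3.0% of cortex-only windows were mostly masked, so the SLITRK1 region shown above is not typical of the strongest cerebellum-only regions.

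When only regions without a masked letter in the window were kept, a choice made after the data were seen, 14398 cortex-only and 16527 cerebellum-only regions remained, at a ratio of 1.15. Their median widths were 434 and 757 bp, their TSS proximal shares 5.33% and 2.74%, and their median distances to a start 34597 and 102766.5 bp. In windows that were mostly masked (1851 cortex-only and 13917 cerebellum-only regions), cerebellum-only regions were again farther from starts (189644 against 30403 bp) and less often TSS proximal (1.01% against 3.84%), but the order of the widths turned around, with 948 bp for cortex-only and 851 bp for cerebellum-only regions. The part of repeats in the larger number of cerebellum-only regions was not tested beyond this.

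Short motifs were searched on both strands of the same windows as a description of letters, not of bound factors. AP-1 factors, dimers of FOS and JUN proteins that respond to neuronal activity, recognise TGACTCA. These letters were in 7.05% of cortex-only windows (95% Wilson interval 6.80 to 7.31), 3.56% of cerebellum-only windows (3.41 to 3.71), 3.65% of shared windows and 4.35% of all merged regions. The same letters in reversed order were in 3.59% and 4.50% of the tissue-only sets, so the excess in the cortex-only set was not seen with the reversed letters. In windows without masked letters the AP-1 shares were 8.17% and 4.21%, and with lists of equal length they were 6.79% and 3.67%.

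ATGCAAAT, the octamer read by POU factors such as POU3F2 of cortical neurons, was in 1.54% of cortex-only and 0.886% of cerebellum-only windows, and in 1.07% of all regions. Without masked letters the shares were 1.40% and 0.666%. CAGCTG, an E-box read by basic helix-loop-helix factors, was in 16.7% and 13.5%, and TGCCAAG, part of the NFI site, in 5.65% and 4.03%. The AGGGGGC core of the CTCF site was in 5.26% and 3.13% and was more frequent in shared windows, at 7.83%. The reversed letters of the last 2 were also more frequent in the cortex-only set, with 1.89% against 0.958% for CGGGGGA, the reverse of the CTCF core, and 0.626% against 0.426% for GAACCGT, the reverse of the NFI letters.

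The ROR and RFX letters were more frequent in cerebellum-only than in cortex-only windows, mostly where the windows were repeats. TAGGTCA, the site of nuclear receptors such as RORA, a factor of Purkinje cells, was in 4.48% of cerebellum-only, 1.71% of cortex-only and 3.40% of all windows. GTTGCCATG, a site of RFX factors, was in 1.22%, 0.670% and 1.06%. In windows that were mostly masked, TAGGTCA was in 11.7% of cerebellum-only windows, 7.89% of cortex-only windows and 12.5% of those of all merged regions. Mostly masked windows held GTTGCCATG in 4.44%, 3.62% and 5.13% of the same groups. The cerebellum-only shares thus lay below those of all mostly masked windows. Without masked letters TAGGTCA was in 2.06% of cerebellum-only and 1.45% of cortex-only windows, and its reversed letters were in 2.57% and 2.47%. For GTTGCCATG the shares in windows without masked letters were 0.236% in the cerebellum-only and 0.570% in the cortex-only set, so its order turned around there.

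Most of the other motifs had an order that depended on which windows were read. CAGATGG, the E-box of NEUROD and ATOH factors, was in 6.16% of cortex-only and 5.78% of cerebellum-only windows, but in 6.51% and 8.60% of windows without masked letters and in 6.03% and 6.72% with lists of equal length. MEF2 (TAAAAATA), with 2.53% and 3.05%, the homeobox core TAATTA, with 4.44% and 5.15%, and SOX (ACAATGG), with 2.81% and 3.78%, were more frequent in cerebellum-only windows, and all 3 turned around without masked letters (1.08% and 0.557%, 3.74% and 3.38%, 2.55% and 2.52%). ZIC (CAGCAGG) was in 9.33% and 7.74%, and in 10.3% and 10.2% without masked letters. T-box (AGGTGTGA) was in 0.649% and 0.901%, and EGR (GCGTGGGCG) in 0.0497% and 0.0312%, the latter from only 19 and 18 regions. Both kept their order without masked letters, with lists of equal length and in whole regions. In whole regions, which are wider in the cerebellum-only set, both E-boxes, ZIC, POU and NFI were more frequent in cerebellum-only regions, whereas AP-1 remained more frequent in cortex-only regions (18.0% against 16.1%).

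**Figure D4:**
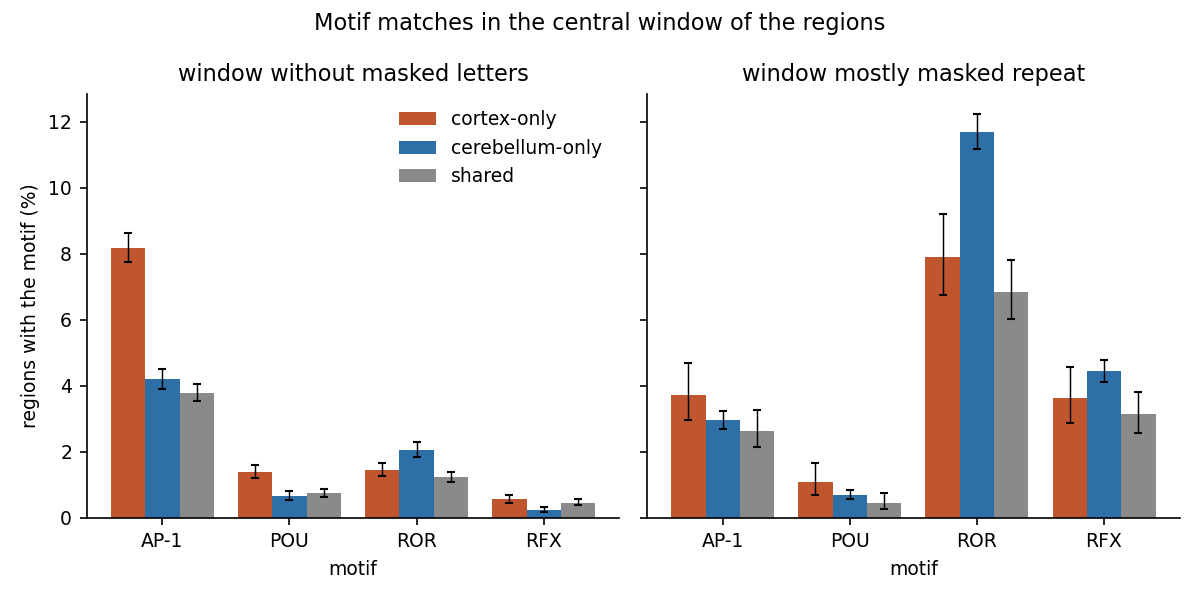
Share of regions (%) with a match to the AP-1, POU, ROR and RFX motifs in the central 200 bp, for regions whose window held no soft-masked repeat letter (left) and for regions whose window was more than 50% masked (right); bars are shares with 95% Wilson intervals. AP-1 is at 8.17% in cortex-only and 4.21% in cerebellum-only regions without masked letters, while ROR reaches 11.7% in masked cerebellum-only windows and 2.06% in unmasked ones.

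The regions with the highest fold in the weaker animal were 312 to 454 bp wide. The ARHGEF12 region (chromosome 9, 47523862 to 47524255, intron) had a fold of 11.4 in P348 and 12.7 in P350. It was followed by intronic regions of TRPC4AP (11.0 and 13.3), TMEM231 (10.9 and 11.8) and CHST9 (10.9 and 11.8), and by an intergenic region 3864 bp from SHCBP1L (10.7 and 12.1). All 5 of these cortex-only regions also held a peak in both hypothalamus libraries, and those at TMEM231 and SHCBP1L held peaks in 10 and 11 of the 12 other pig libraries. ARHGEF12 encodes a guanine nucleotide exchange factor for RhoA.

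The leading cerebellum-only regions were seen in few other libraries. The SLITRK1 region (chromosome 11, 55616328 to 55616646), 660560 bp from that neuronal transmembrane protein gene, had folds of 10.7 and 14.4, and the next, 47145 bp from the amino acid transporter gene SLC6A15, had 10.8 and 9.80. Neither met a peak in the 12 other libraries. The regions next to EDIL3 (10.6 and 9.70) and LOC100624085 (9.62 and 12.05) met a peak only in both skeletal muscle libraries, and that in an intron of LOC110256334 (10.1 and 9.41) met those and adipose P348. None of the 5 met a hypothalamus peak.

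At promoters, the strongest cortex-only regions lay near UBD (9.45 and 9.86), HDAC9 (9.10 and 10.3), C1S (8.89 and 9.06), NUDT13 (7.59 and 10.1) and ALS2CR12 (7.82 and 7.55). The region at C1S, a complement protease, held a peak in all 12 other libraries, so among the pig libraries it lacked a peak only in the cerebellum. The strongest cerebellum-only regions within 2 kb of a start lay near SLC7A2 (6.11 and 7.39), RNF182 (6.48 and 5.65), DSG3 (5.64 and 7.46), SAMD7 (6.60 and 5.63) and SLC7A13 (5.43 and 7.11). In all, 2004 cortex-only regions lay within 2 kb of the starts of 1798 coding genes, and 1129 cerebellum-only regions within 2 kb of the starts of 1050. The promoter regions named here were chosen after their values were seen.

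Across the whole sets, cortex-only regions were also found more often in other tissues. In each of the 12 other pig libraries, a larger share of cortex-only than of cerebellum-only regions met a peak. The widest gap was in skeletal muscle P348, with 32.0% against 10.2%, and the narrowest in hypothalamus P348, with 19.9% against 18.2%. Hypothalamus P350 met 43.2% of cortex-only and 25.7% of cerebellum-only regions. The mean over the 12 libraries was 30.3% and 17.2%, against 70.8% of shared regions. When all 16 pig lists were cut to the length of the shortest, 99960 peaks, the order held in 10 of the 12 libraries and turned in adipose P350 (20.9% against 23.6%) and hypothalamus P348 (31.5% against 32.5%).

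Regions with no peak in any of the 12 other libraries were 33.0% of the cerebellum-only set (19024 regions) and 20.2% of the cortex-only set (7716 regions). Only 22 cerebellum-only regions but 521 cortex-only regions were in all 12 other lists. Peaks of both hypothalamus libraries, the third brain tissue of the series, met 15.9% of cortex-only and 8.31% of cerebellum-only regions. Regions with peaks in both hypothalamus libraries and none of the 10 libraries from outside the brain numbered 1283 in the cortex-only and 540 in the cerebellum-only set. The 12 libraries differ in list length and come from the same 2 animals, so these shares describe the lists.

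**Figure D5:**
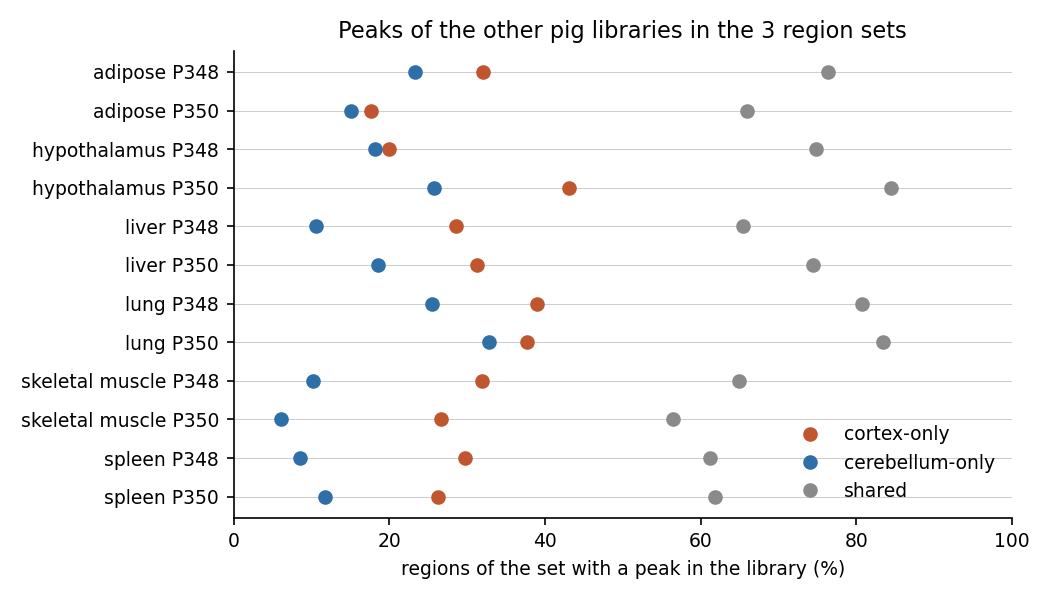
Share of cortex-only, cerebellum-only and shared regions (%) that met a peak by at least 1 bp in each of the 12 other pig libraries. The cortex-only points lie to the right of the cerebellum-only points in every library, from 1.73 percentage points apart in hypothalamus P348 to 21.7 in skeletal muscle P348.

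Counted by nearest coding start, more genes leaned to the cortex although the cerebellum-only set was larger. Of 20674 coding genes, 39.6% had more cortex-only than cerebellum-only regions and 22.4% the reverse. With lists of equal length these shares were 48.4% and 14.8%, and with peaks of q under 0.0001 they were 47.4% and 4.75%. More cerebellum-only regions were thus counted at fewer leaning genes.

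The 10 genes with the largest surplus of cerebellum-only regions were led by the teneurin TENM3, an adhesion receptor, with 261 cerebellum-only and 12 cortex-only regions. PCDH7 (241 and 11), TENM2 (162 and 9), CDH9 (150 and 3), NCAM2 (154 and 8), FLRT2 (150 and 9), EPHA7 (146 and 7) and ROBO1 (135 and 9) followed, which encode cell adhesion or axon guidance proteins, together with ARAP2 (155 and 3) and the potassium channel gene KCNT2 (148 and 15), which lies on an unplaced scaffold. Few of these regions were strong. With peaks of q under 0.0001, CDH9 had 16 cerebellum-only and 2 cortex-only regions, TENM3 17 cerebellum-only and 12 cortex-only regions, PCDH7 12 and 11, TENM2 8 and 6, EPHA7 7 and 7, and FLRT2 4 and 11. NCAM2 had 12 and 6, ARAP2 12 and 5, KCNT2 13 and 7 and ROBO1 8 and 4.

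RBFOX1, a neuronal splicing regulator whose gene spans 2271 kb, had the largest surplus of cortex-only regions, with 97 against 4 cerebellum-only regions. NAV3 (63 and 7), the adhesion genes OPCML (50 and 4) and NTM (44 and 11), RORA (41 and 5), QKI, an RNA-binding regulator of myelination (44 and 9), KAZN (39 and 5), BRINP1 (38 and 6), XYLT1 (34 and 2) and AUTS2 (33 and 2) followed. Among strong peaks (q under 0.0001), RBFOX1 had 16 and 2, QKI 28 and 1, and XYLT1 22 and 0. The whole sets held 27447 and 5503 regions at that limit, a 4.99-fold excess of cortex-only regions. These genes were also chosen for their surplus in the same lists. RORA had 41 cortex-only regions although it is a marker of Purkinje cells.

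Gene length went with the count of both kinds of region. When genes were split into 4 classes of equal number by length, in the class longer than 55.0 kb 51.6% leaned to the cortex and 32.1% to the cerebellum, and in the class shorter than 6.04 kb the shares were 21.997% and 22.596%. The long genes held 20706 cortex-only and 33636 cerebellum-only regions. With q under 0.0001, 66.6% of the long genes leaned to the cortex and 7.16% to the cerebellum.

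Genes of microglia and oligodendrocytes leaned to the cortex. The lists were written with earlier results of these data known and are given by counts only. All 8 microglia genes had more cortex-only than cerebellum-only regions, among them the integrin ITGAM (4 and 0), the growth factor receptor CSF1R (4 and 1), the chemokine receptor CX3CR1 (3 and 1) and the calcium-binding AIF1 (1 and 0). Over all coding genes the share was 39.6%. Of 10 oligodendrocyte genes 8 leaned to the cortex and 2 to the cerebellum. With lists of equal length all 10 leaned to the cortex, beside 48.4% of all coding genes. The myelin genes MOBP (9 and 0) and MBP (6 and 3) and the lineage factor SOX10 (2 and 0) were among them. At q under 0.0001, 7 microglia and 9 oligodendrocyte genes leaned to the cortex and none to the cerebellum, where 47.4% and 4.75% of all coding genes did.

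The 8 astrocyte genes were divided, with 5 leaning to the cortex and 3 to the cerebellum, beside 39.6% and 22.4% of all coding genes. The factor SOX9 had 32 cortex-only and 4 cerebellum-only regions and the sodium bicarbonate cotransporter SLC4A4 12 and 6, while the gap junction gene GJA1 had 7 and 36 and the water channel AQP4 2 and 6. At q under 0.0001 all 8 leaned to the cortex, GJA1 with 6 and 2, beside 47.4% of all coding genes. The 5 endothelial genes were divided as well, 2 to each side, beside the same 39.6% and 22.4% of all coding genes. CDH5 had 10 and 18, PECAM1 4 and 0, TEK 1 and 5 and FLT1 8 and 7.

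For neuronal lists the counts depended on how regions were assigned to genes. By nearest start, 9 of 20 genes of cortical projection neurons leaned to each side, beside 39.6% and 22.4% of all coding genes. Counting only regions in the gene body or within 10 kb of it, 9 leaned to the cortex and 4 to the cerebellum, beside 43.4% and 19.2% of all coding genes. By nearest start the largest differences of the list favoured the cerebellum. Among them were BCL11A at 10 cortex-only and 55 cerebellum-only regions and TLE4 at 8 and 52, both of which encode factors of the cortical lineage. In the gene body and 10 kb BCL11A had 3 and 3 and TLE4 4 and 11. The largest differences there favoured the cortex, at CUX2 (17 and 0) and CUX1 (16 and 3). With peaks of q under 0.0001 the list turned, with 13 genes leaning to the cortex and 1 to the cerebellum, and with BCL11A at 8 and 5 and TLE4 at 12 and 3. At that limit 47.4% and 4.75% of all coding genes leaned to the cortex and the cerebellum.

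Of 16 cerebellar granule cell genes 5 leaned to the cortex and 6 to the cerebellum (2 and 6 in the gene body and 10 kb), beside 39.6% and 22.4% of all coding genes. Those leaning to the cerebellum were led by EN1 (1 and 20), ETV1 (3 and 13), ATOH1 (2 and 10) and PAX6 (1 and 6), which encode factors of the granule cell lineage. In the gene body and 10 kb EN1 and ATOH1 each had 0 and 0, and ETV1 and PAX6 each had 0 and 3. At q under 0.0001 EN1, ETV1 and ATOH1 each had 3 and 3, and PAX6 had 3 and 2. The list then had 6 and 5 genes on the 2 sides, where 4.75% of all coding genes leaned to the cerebellum. The 12 Purkinje cell genes were split 6 and 6, from RORA (41 and 5) to the carbonic anhydrase-related CA8 (1 and 36) and SKOR2 (2 and 19).

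Of 15 inhibitory neuron genes 5 leaned to the cortex and 7 to the cerebellum, beside 39.6% and 22.4% of all coding genes, with TFAP2A at 8 and 70, DLX6 at 2 and 16 and GAD2 at 0 and 12. At q under 0.0001, 13 leaned to the cortex and none to the cerebellum, beside 47.4% and 4.75% of all coding genes. Of 8 activity-regulated genes with a coding start, 5 leaned to the cortex, led by FOSL2 (11 and 4), FOS (9 and 0) and ARC (3 and 0), and 2 to the cerebellum, led by the neurotrophin BDNF (1 and 12). Of 8 genes used in all cells, 3 had cortex-only regions, GAPDH (3), PPIA (2) and ACTB (1), and none had a cerebellum-only region. The counts of both lists stand beside 39.6% and 22.4% of all coding genes leaning to the cortex and the cerebellum. For genes used in all cells the share leaning to the cortex was near that background.

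The highest fold of any peak in a gene or within 10 kb of it, an added measure chosen after the data were seen, was above in both cortex libraries for 59.4% of all coding genes and above in both cerebellum libraries for 8.77%. By this measure 12 of 20 cortical projection neuron genes were higher in the cortex, a share near that background. Among the 16 granule cell genes, 9 were higher in the cortex and 3 in the cerebellum, GABRA6 among them. Inhibitory neuron genes were higher in the cortex for 13 of 15 and microglia genes for 7 of 8. Purkinje cell genes, although of the cerebellum, were higher in the cortex for 9 of 12, and oligodendrocyte genes for 7 of 10. No gene of the inhibitory neuron, microglia, Purkinje cell and oligodendrocyte lists was higher in the cerebellum. Of the cortical projection neuron genes 1 was, CAMK2A. Astrocyte genes were higher in the cortex for 6 of 8 and in the cerebellum for 1. Endothelial genes gave 4 and 1 of 5, activity-regulated genes 3 and 2 of 8, and genes used in all cells 5 and 0 of 8.

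Among the 49310 shared regions, strength was compared with limma on the log2 fold after each library was centred on its median. At an adjusted p under 0.05, 4577 regions (9.28%) were stronger in the cortex and 4565 (9.26%) in the cerebellum. Without centring, 10186 and 1388 regions passed, where the median difference over shared regions was 0.20 (log2, cortex minus cerebellum), so 50.1% of calls favoured the cortex with centring and 88.0% without. All limma differences given here are relative to the median shared region of each library. Leaving out a library lowered the counts to between 1710 and 3598 in the cortex direction and between 1163 and 3227 in the cerebellum direction, with the lowest counts when cortex P350 was left out. Without cortex P348 they were 2543 and 2154, and without cerebellum P348 2723 and 2257.

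Regions stronger in the cortex were TSS proximal in 13.6% and regions stronger in the cerebellum in 8.76% of cases, against 29.0% of those that did not pass. Their median distances to a start were 36546 and 73429 bp. Of the regions stronger in the cortex, 33.0% held a peak in all 12 other pig libraries, compared with 7.78% of those stronger in the cerebellum and 35.8% of the rest. The median size of a called difference was 0.73 on the log2 scale in the cortex direction and 0.65 in the cerebellum direction.

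The largest differences on placed chromosomes came from intronic and intergenic regions. The region 407749 bp from COG6 (chromosome 11, 14983967 to 14985096) had folds of 10.3 and 9.92 in the cortex and 2.30 and 2.65 in the cerebellum, a log2 difference of 1.80 (SE 0.166, adjusted p = 0.0026). Those nearest to ATP6V0D2, GPC5, KLHL1 and RSPH4A had differences of 1.80, 1.78, 1.74 and 1.69. In the other direction, an intronic region of OXCT1 (chromosome 16, 26619148 to 26619869), a ketone body enzyme gene, had folds of 2.95 and 2.98 in the cortex and 11.8 and 10.1 in the cerebellum, a log2 difference of −2.11 (SE 0.186, adjusted p = 0.0026). Regions at LOC110260282, ARHGAP15, LOC102159784 and ZFAT followed, each with differences between −2.03 and −2.00. All 10 passed the test whichever library was left out.

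In the gene lists, 39 shared regions were stronger in the cortex and 56 in the cerebellum, of which 8 and 14 passed whichever library was left out and 39 and 19 passed without centring, and all kept their direction. The counts of each list below stand beside 9.28% of all shared regions stronger in the cortex and 9.26% stronger in the cerebellum. The regions named below were chosen from these after their values were seen. Of 78 shared regions nearest to granule cell genes, 15 were stronger in the cerebellum and 3 in the cortex. Of the 15, 5 were at PAX6, a factor of granule cells. The PAX6 promoter region had folds of 3.09 and 3.24 in the cortex and 5.65 and 4.35 in the cerebellum (log2 difference −0.88, SE 0.195, adjusted p = 0.015), and a genic region 43462 bp from a PAX6 start had 4.23 and 3.74 against 7.82 and 8.00 (−1.22, SE 0.172, adjusted p = 0.00391). A region 3595 bp from FAT2, a cadherin of granule cells, had 2.62 and 2.29 against 3.89 and 4.79 (−1.05, SE 0.150, adjusted p = 0.00416). By nearest start FAT2 leaned the other way, with 3 cortex-only and 0 cerebellum-only regions. The highest folds in the gene or within 10 kb of it were 4.81 and 5.78 in the cortex against 3.89 and 4.79. The 3 regions stronger in the cortex were nearest to ATOH1, BARHL1 and EN1 (log2 differences 0.90, 0.53 and 0.41). The PAX6 promoter lost its call when any of 3 of the 4 libraries was left out, while the other PAX6 region and the FAT2 region kept theirs.

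Of 187 shared regions nearest to cortical projection neuron genes, 11 were stronger in the cortex and 17 in the cerebellum, where all shared regions gave 9.28% and 9.26%. The EMX2 promoter region had folds of 3.42 and 3.07 in the cortex and 2.06 and 1.99 in the cerebellum (log2 difference 0.45, SE 0.124, adjusted p = 0.0332, limma). It lost its call when any library was left out. The region 25507 bp from NEUROD2 had 6.64 and 6.16 against 2.61 and 3.42 (0.86, SE 0.171, adjusted p = 0.0102) and kept its call in every such fit.

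Promoters of inhibitory neuron genes differed in direction. That of DLX1, a factor of forebrain interneurons, had folds of 7.73 and 6.39 in the cortex and 2.70 and 3.04 in the cerebellum (log2 difference 1.06, SE 0.173, adjusted p = 0.00573). That of GAD2 was also stronger in the cortex, by 0.67. That of GAD1, the other glutamate decarboxylase, had 2.62 and 2.20 against 2.52 and 3.27 and was called stronger in the cerebellum relative to the median (−0.49, SE 0.136, adjusted p = 0.033), but its folds overlapped and the call was lost without centring.

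Glial genes held calls of both kinds. Of 69 shared regions of astrocyte genes, 8 were stronger in the cortex and 5 in the cerebellum. Of the 8, 6 were at SLC1A3, a glutamate transporter, where the region 16787 bp from a start had folds of 6.98 and 7.46 against 2.53 and 2.82 (log2 difference 1.201, SE 0.162, adjusted p = 0.00359). All 3 called regions of SLC4A4, among them its promoter, were stronger in the cerebellum. Of 26 shared oligodendrocyte regions, 5 were stronger in the cortex, 4 of them next to OLIG1 and OLIG2, and 2 in the cerebellum. The region 18217 bp from OLIG1 had 7.64 and 6.55 against 2.44 and 3.22 (1.101, SE 0.178, adjusted p = 0.00552). Both called microglia regions, near P2RY12 and TREM2, were stronger in the cortex, by 0.67 and 0.89.

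Of 68 Purkinje cell regions 4 were stronger in the cortex and 7 in the cerebellum, and RORA held regions of both kinds. Its intronic region at 111176486 to 111177432 on chromosome 1 had folds of 3.55 and 3.37 in the cortex and 5.51 and 7.07 in the cerebellum (log2 difference −1.08, SE 0.170, adjusted p = 0.00514). The region at 110903907 to 110904433 of the same gene had 5.38 and 6.48 against 3.20 and 2.86 (0.73, SE 0.183, adjusted p = 0.0233). Of 24 activity-regulated regions 3 were stronger in the cerebellum, including that at the BDNF promoter, with 2.61 and 2.71 against 4.22 and 4.47 (−0.94, SE 0.145, adjusted p = 0.00483), and none was stronger in the cortex, beside 9.26% and 9.28% of all shared regions. The other 2, near FOS and JUNB, did not pass without centring. Of the 9 shared regions of genes used in all cells, none passed in either direction. Inhibitory neuron regions gave 5 and 4 calls of 50, and endothelial regions 1 and 3 of 36.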

How the data were processed

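ATAC-seq peak lists of 4 pig libraries were analysed, with 12 further pig lists for 1 comparison. The 15 cattle lists were not used. Per the study's methods, the authors trimmed, aligned and filtered reads (Trim Galore 0.4.5, BWA 0.7.17, SAMtools 1.10 and Picard 2.18.17 in the submitters' processing notes), and called broad peaks with MACS2 at a q limit of 0.05, 1 list per library. Shifting of reads for the Tn5 cut was not given in the sources used here. The deposited values are the fold enrichment of each peak (a ratio to local background) and its −log10 q. Between 5.28% and 16.3% of the peaks listed per library had q above 0.05.

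Peaks sharing 1 bp were merged. Coding starts, gene models and soft-masked sequence came from RefSeq on Sscrofa11.1. Regions were TSS proximal within 2 kb of a coding start, otherwise at a non-coding start, genic or intergenic. Library values were compared with exact two-sided permutation tests, and log2 folds of shared regions with limma 3.58.1 (R 4.3.3, Benjamini-Hochberg adjustment), tested on simulated data. Other steps used Python 3.11.15 with pandas 2.3.3, NumPy 2.4.6, SciPy 1.17.1 and pysam 0.24.0.

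Named were the 3 markers, up to 4 members of each list with the largest difference in counts, the 10 genes with the largest surplus on each side, and the 5 strongest regions of each kind on placed chromosomes. The members and lists were chosen with earlier results of these data known. Of 111 list genes, 110 had a coding start. Some list members that the rule would name are not reported here. P348 and P350 are the same 2 animals in both tissues by the labels, which pairs the libraries. The deviations of the P348 libraries correlated at 0.0348 over shared regions. Each tissue has 2 libraries, so the limma p-values rest on the spread between 2 littermates. The variance of each region was moderated toward a trend over all shared regions. The exact p-values given here were the smallest possible with this number of libraries and measure no spread. The alternatives were other q limits, list lengths, merging, overlap, pairing, scaling and left-out libraries.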

Additional observations from a re-analysis of the deposited data

How the results depend on the processing

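The differences in width and place kept their direction under every alternative listed here, except that in mostly masked windows cortex-only regions were the wider ones (948 against 851 bp). The order in other tissues held except in 2 of 12 libraries with lists of equal length. The set sizes did not. The log2 ratio of cerebellum-only to cortex-only regions was −0.42 with lists of equal length, −0.64 at q under 0.01, −2.32 at q under 0.0001, 0.40 with 50% of the region covered, 1.03 with a peak in either animal and 0.20 without masked letters. Peak number per library turned to −0.0602 at q under 0.01 and −1.03 at q under 0.0001 (log2), covered length to −0.89 and the TSS proximal share to 6.40 points. The cause was not tested.

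Cortex-only and cerebellum-only regions numbered 88583 and 181422 with a peak in either animal, and 14398 and 16527 without masked letters. Cerebellum-only regions numbered 34922 with lists of equal length, 25960 at q under 0.01 and 5503 at q under 0.0001. Leaving out an animal gave 81791 to 83006 cortex-only and 126959 to 150444 cerebellum-only regions, with median widths of 359 to 372 and 500 to 542 bp, TSS proximal shares of 4.22% to 6.19% and 1.94% to 2.43%, and a log2 ratio of 0.61 to 0.88. Median width of cortex-only regions was 557 bp with equal lists, 530 bp at q under 0.0001, 475 bp with 50% covered, 398 bp in either animal and 434 bp without masked letters, and that of cerebellum-only regions 833 bp with equal lists, 826 bp at q under 0.01, 731 bp at q under 0.0001, 561 bp in either animal and 757 bp without masked letters. TSS proximal shares were 10.6% and 2.82% at q under 0.0001, 7.34% and 2.43% with 50% covered, 2.63% and 0.989% within 500 bp of a start, and 2.74% for cerebellum-only regions without masked letters.

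Shared regions stronger in the cortex and cerebellum numbered 10186 and 1388 without centring, 398 and 504 at q under 0.0001, and 1710 to 3598 and 1163 to 3227 with a library left out, where the lone library of a tissue is assumed to vary like the others. With the animal as a replicate block they numbered 5634 and 5884, and the block left the library differences at 0.44, 0.64, 0.31 and −3.71 (exact sign-flip p = 0.5, the smallest possible). Of the calls without the block, 4576 and 4564 were kept with it.

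Log2 ratios of motif shares (cortex-only over cerebellum-only) changed sign for CAGATGG (−0.32 in whole regions, −0.16 with equal lists, −0.40 without masked letters), in whole regions for CAGCTG (−0.28), ZIC (−0.21), POU (−0.10) and NFI (−0.13), and without masked letters for MEF2 (0.96), RFX (1.27), homeobox (0.15) and SOX (0.0182). The choice to leave out masked windows, the gene counts at q under 0.0001 and the highest fold near genes were added after seeing the data.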
